A study of Mus musculus with 22 samples.

Results

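The cytosolic ribosomal protein genes were read on whole-brain arrays at 2 ages, in control mice and in mice that the labels call Agtr2 knockouts. Members were the non-control probes whose gene name is Rpl or Rps followed by a number and at most 1 letter, or Rplp0, Rplp1 or Rplp2, with the brightest probe standing for each gene. This gave 77 members among the 29273 features of the array, 31 of the small ribosomal subunit (Rps) and 46 of the large subunit (Rpl and Rplp), from 127 probes. At embryonic day 15 (E15) the series held 8 animals labelled knockout and 6 controls on 14 dual-colour arrays, and at postnatal day 1 (P1) it held 4 and 4 on 8 arrays. Each array carried the RNA of 1 knockout and 1 control animal in the colours Cy3 and Cy5. All RNA was total RNA from frozen slices of whole brain, so every value averages over all cell types of the slice, and fewer cells of a type and less RNA per cell cannot be told apart. The strain, sex, dam and deleted part of Agtr2 are not given in the sources used here. The labels call the replicates biological and say no more of their origin, so p-values measure the spread between these samples.

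Ribosomal proteins assemble with ribosomal RNA into the small subunit, which decodes messenger RNA, and the large subunit, which joins amino acids. Their genes are among the most highly transcribed of a growing cell. Most of their messenger RNAs begin with a C followed by a run of C and T (U in RNA), the terminal oligopyrimidine tract or TOP, through which mTOR signalling sets their translation. In the developing brain, dividing progenitors are known for high ribosome production, which declines as neurons mature. Agtr2, on the X chromosome, encodes the type 2 receptor for angiotensin II.

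Promoter windows were available for 57 of the 77 genes, from RefSeq on GRCm38.p6 (68 windows, since some genes have more than 1 start). The following 8 windows run from 50 bases before to 20 bases after the annotated start, on the strand of the gene. They are shown because the first 5 genes fell between E15 and P1 in control brains, Rps25 and Rpl31 rose on the probes that stand for them, and Rpl4 fell in the animals labelled knockout. Capitals mark the longest run of C and T within the stretch from 10 bases before to 20 bases after the start.
Rps15a, chr7:118116128-118116197, minus strand: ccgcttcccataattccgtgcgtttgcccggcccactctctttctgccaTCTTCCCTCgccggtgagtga
Rps6, chr4:86857348-86857417, minus strand: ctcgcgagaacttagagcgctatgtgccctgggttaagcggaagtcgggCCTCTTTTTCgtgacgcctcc
Rplp2, chr7:141447601-141447670, plus strand: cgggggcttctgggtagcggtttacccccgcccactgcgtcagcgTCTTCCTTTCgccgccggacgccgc
Rpl14, chr9:120571467-120571536, plus strand: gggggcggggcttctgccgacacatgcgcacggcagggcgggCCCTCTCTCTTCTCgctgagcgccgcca
Rpl39, chrX:37085203-37085272, minus strand: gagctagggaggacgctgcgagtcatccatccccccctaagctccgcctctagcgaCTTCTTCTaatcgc
Rps25, chr9:44407664-44407733, plus strand: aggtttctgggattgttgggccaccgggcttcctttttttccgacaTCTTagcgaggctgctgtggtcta
Rpl31, chr1:39367801-39367870, plus strand: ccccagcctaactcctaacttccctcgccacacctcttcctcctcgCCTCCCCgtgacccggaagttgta
Rpl4, chr9:64173337-64173406, plus strand: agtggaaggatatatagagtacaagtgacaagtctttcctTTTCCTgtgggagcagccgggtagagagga

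The marked runs are 9 bases long in Rps15a, 10 in Rps6 and Rplp2, 14 in Rpl14, 8 in Rpl39, 4 in Rps25, 7 in Rpl31 and 6 in Rpl4. Letters outside the searched stretch do not count, and the run of Rpl4 goes on upstream of it. Runs longer than the marked one also lie wholly or partly upstream of the stretch in Rps15a, Rpl39, Rps25 and Rpl31. A run of at least 6 C or T in that stretch was present in 36 of the 68 member windows (52.9%) against 28.7% of all 32851 windows. A C at the annotated start itself followed by at least 4 C or T was present in 13 member windows (19.1%) against 2.51% of all. Over the full windows of 300 bases and both strands, CCGGAAG, the core bound by ETS factors, was present in 24 member windows (35.3%) against 8.86% of all, and AAGATGG, the core bound by YY1, in 11 (16.2%) against 6.34%. TATAAA was present in 6 (8.82%) against 13.6%, and CACGTG, the E-box bound by Myc, in 6 (8.82%) against 7.15%. A match is a description of the letters and not a bound site, and annotated starts may be off by some bases.

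Most members were bright. Each was well above background in every channel of both ages, except Rpl3l, a paralogue of Rpl3 used in striated muscle, at 96.4% of E15 channels. The dimmest probes were those of Rpl3l, at a percent rank of 35.1 in brightness among all features, Rpl14, at 74.0, and Rpl31, at 83.4. The brightest members of the E15 controls were Rplp1, Rpl7a, Rplp2, Rps23, Rps14 and Rps12, and those of the P1 controls were Rplp1, Rpl7a, Rps23, Rps12, Rps2 and Rps7. This order is of probes and does not rank the genes. Rplp1, a stalk protein of the large subunit, was saturated in 9 of the 44 channels, so its ratios are compressed there. Over the arrays, 74.7% to 89.2% of spots were well above background at E15 and 71.1% to 89.4% at P1. Spots flagged as outliers, which were set missing, numbered 52 to 381 per array at E15 and 287 to 3343 at P1. The number of arrays limits the precision. The probe of Agtr2, the targeted gene, had knockout over control log2 ratios of -1.24, -0.08, -0.40, -2.10, 0.36, -0.61, 0.00 and 0.87 in E15 replicates 1 to 8 (limma adjusted p = 0.770) and of 0.22, 0.29, -0.13 and 0.07 at P1 (adjusted p = 0.711). Where the probe lies relative to the deletion is not given in the sources used here, so it does not check the labels.

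Some E15 libraries stood apart in genes of tissue around the brain. The summed signal of 10 markers of meninges and fibroblasts (among them Col1a1 and Col3a1) was 57956 in control 1, 22106 in control 2 and 58778 in knockout animal 8, against 4574 to 10050 in the 11 other E15 animals and 3198 to 4424 in P1 animals. Skeletal muscle markers summed to 54281 in control 1 and 21932 in knockout animal 8, against 1431 to 6741 in the 11 other E15 animals. Control 2, at 6284, lay within that range, so it stood apart in the meninges markers only. Control 1 serves replicates 1 and 4, and control 2 serves replicates 2 and 3. The 2 arrays of replicate 1 set its knockout animal against controls 6 and 1, and those of replicate 2 against controls 2 and 3, so their averages are not dye swaps of 1 pair. The median of the members on these arrays was -0.08 against control 6 and -0.42 against control 1, and -0.03 against control 2 and -0.09 against control 3. Replicates 3 and 4 have 1 array each, with no dye swap, and their ratios were corrected by a dye effect averaged over the rest. That average includes replicates 1 and 2, where the dye effect cannot be told apart from the difference between their control animals. The correction therefore also carries part of those differences. E15 arrays were scanned on 3 days, with replicates 1 to 4 on day 3. Medians and counts of the members are given with and without these libraries below.

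At E15 the ribosomal protein genes lay slightly below 0 in knockout over control, and none passed the test. Of 77 members, 62 had a mean log2 ratio below 0, with a median of -0.10 and a range from -0.55 (Rps14) to 0.24 (Rpl11). Over all features the median was -0.0056 with 53.4% below 0, and over the brightest 10% of features it was -0.0010. limma called 0 of 24469 features (0%) and 0 members at an adjusted p under 0.05. At an unadjusted p under 0.05 there were 1722 features (7.04%) and 6 members (7.79%), all 6 lower, a share near that of all features. The replicate medians of the members did not share a direction. They were -0.21, -0.03, -0.31, -0.58, 0.10, -0.07, 0.04 and 0.31 in replicates 1 to 8 (SD 0.273, n = 8). Replicate 4 was lowest, with 65 of 73 members below 0, and replicate 8 was highest, with 13 of 77 below 0.

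The E15 median rested on few libraries. Without both replicates of 1 array it was 0.013, with 37 members below 0. It was -0.052 without replicate 4, -0.068 without replicate 3 and -0.17 without replicate 8. The 4 replicates scanned on day 3 ran from -0.58 to -0.03, all below 0, and the 4 scanned on days 1 and 2 ran from -0.07 to 0.31, with 1 below 0. Refitted within a day, the median was 0.23 on day 1 (2 replicates, 9 members below 0), 0.05 on day 2 (4 replicates, 29 below 0) and -0.33 on day 3 (4 replicates, 67 below 0). Without the arrays of controls 1 and 2 and of knockout animal 8 it was -0.08 with 53 members below 0. The remaining replicate medians were -0.11, -0.16, 0.10, -0.08 and 0.05 (replicates 1, 2, 5, 6 and 7), over 54, 72, 76, 73 and 73 members. Replicates 1 and 2 then held 1 array each, corrected by a dye effect averaged over replicates 5, 6 and 7. No replicate held values of all 77 members there, so the 53 does not compare directly with the 62 of 77 given above.

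**Figure D1:**
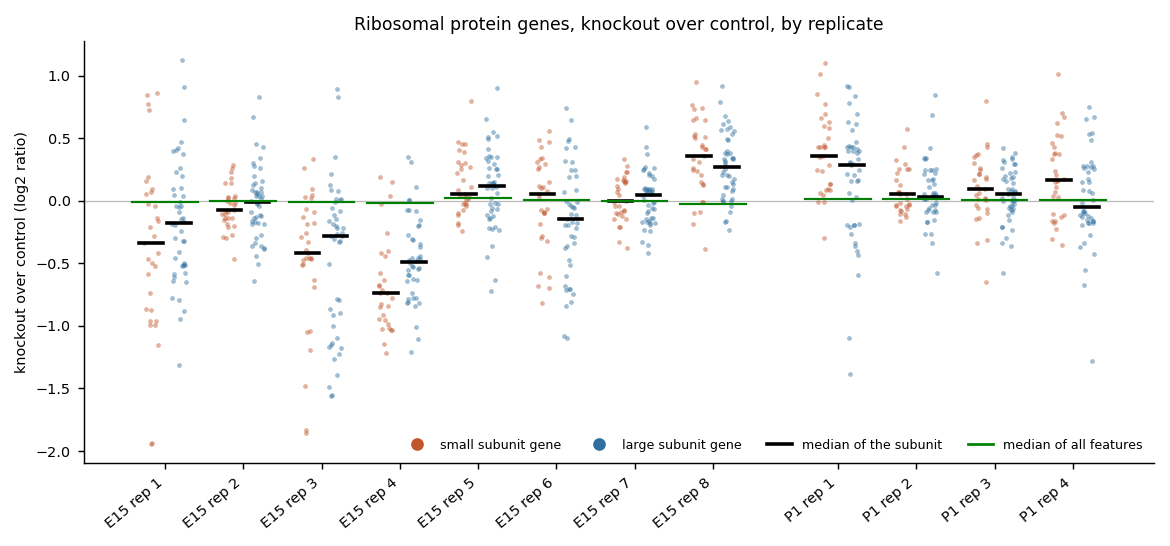
Each point is the log2 ratio of knockout over control of 1 ribosomal protein gene in 1 replicate (x axis, 8 at E15 and 4 at P1), with the small and large subunits in separate colours, the subunit medians as bars and the median of all features marked. At E15 the members lie lowest in replicate 4 (median -0.58) and highest in replicate 8 (0.31), and at P1 all 4 medians lie above 0.

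Marker lists of other tissues and of brain regions also differed between these replicates. The median log2 ratio of the 10 meninges and fibroblast markers was -1.54, -0.23, -1.34, -2.43, 0.07, -0.71, 0.48 and 2.71 in replicates 1 to 8, with its extremes in replicates 4 and 8, as for the ribosomal genes. That of the skeletal muscle markers was -1.32, -0.83, -0.70, -3.50, 0.24, -0.71, 0.10 and 3.55. Markers of dividing cells, such as Mki67 and Top2a, had medians of -0.33, 0.27, 0.46, -0.51, -0.21, -0.50, 0.03 and -0.20, in another order. Forebrain markers had 0.51, 0.27, 0.76, 0.27, -0.02, -0.41, 0.11 and -1.75, lowest in replicate 8. Averaged over replicates 5 of 10 of them lay below 0. Hindbrain and cord markers were highest in replicate 8, at 0.78. Averaged over replicates, 10 of 10 meninges markers (median -0.30), 9 of 10 muscle markers (-0.49) and 10 of 11 dividing cell markers (-0.10) lay below 0, with 0 called. The part of these tissues and brain regions in the ribosomal values was not tested beyond the refit given above.

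**Figure D2:**
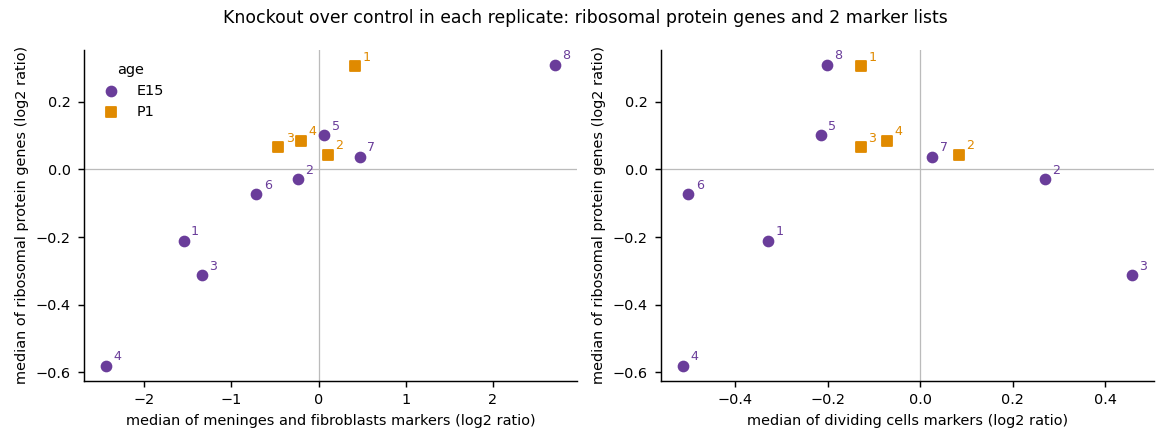
Each point is 1 replicate, with the median log2 ratio of a marker list on the x axis (meninges and fibroblasts in one panel, dividing cells in the other) and the median of the ribosomal protein genes on the y axis, E15 and P1 in separate colours. E15 replicate 4 is lowest in both meninges markers (-2.43) and members (-0.58), and E15 replicate 8 is highest in both (2.71 and 0.31).

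The E15 members of smallest p differed in how many replicates they rested on. Rps14, a small subunit protein whose loss is known from a bone marrow disorder, had replicate values with lowest -1.85, median -0.42 and highest 0.11, and a mean of -0.55 (SE 0.20, n = 8, limma adjusted p = 0.700). Of its 8 values 7 lay below 0, and the lowest came from replicate 3. The values of replicates 3 and 4, with 1 array each, had a dye effect of 0.40 taken off for this gene. Rps16, whose tail reaches the site of the initiator tRNA, ran from -0.99 through a median of -0.18 to -0.01, with a mean of -0.33 (SE 0.12, adjusted p = 0.700). It was the only member below 0 in all 8 replicates (1.30% of members, against 0.650% of all features).

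Rplp2, an acidic stalk protein that helps recruit translation factors, ran from -1.49 through -0.29 to 0.20, with a mean of -0.45 (SE 0.17). Rpl18, of the large subunit, ran from -1.23 through -0.31 to 0.20 with a mean of -0.44 (SE 0.16), and Rpl29, a large subunit protein that mice can live without, from -0.70 through -0.40 to 0.31 with a mean of -0.30 (SE 0.12). Rps10, which is ubiquitinated on stalled ribosomes, ran from -0.87 through -0.17 to 0.04 with a mean of -0.24 (SE 0.10, adjusted p = 0.704; 0.700 for the other 3). In each of these 4 genes 6 or 7 of 8 values lay below 0 and the sign was not shared by all replicates. On the other side, Rpl11, which binds and inhibits Mdm2, had a mean of 0.24 (SE 0.20, adjusted p = 0.778), Rpl27a 0.18 (SE 0.21, adjusted p = 0.833) and Rpl13a, which can leave the ribosome to silence transcripts, 0.18 (SE 0.15, adjusted p = 0.783). Within scan day 1, Rpl18, Rplp2 and Rpl29 had values of 0.07, 0.02 and 0.25.

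The lists of members that were low in single replicates overlapped in part. In replicate 1, 26 members lay below -0.5, in replicate 3 there were 28 and in replicate 4 there were 42, against 4.87%, 9.82% and 7.73% of all features. Replicates 1 and 3 shared 6 of these genes, 23.1% of the first list and 21.4% of the second. Replicates 1 and 4 shared 11, 42.3% and 26.2%, and replicates 3 and 4 shared 19, 67.9% and 45.2%. Replicate 6 had 16 such members, against 4.63% of all features, and shared 6, 4 and 3 of them with replicates 1, 3 and 4. Lists this long overlap in part by length alone, since that of replicate 4 held 42 of its 73 members. No expected overlap was computed, and the shares were not tested. In replicate 8, 21 members lay above 0.5, against 7.32% of all features.

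At P1 the ribosomal protein genes lay above 0 in knockout over control, and again none passed the test over all features. Of 76 members tested, 57 had a mean above 0, with a median of 0.12 and a range from -0.73 (Rpl4) to 0.59 (Rpl35a). Rpl31 had a ratio in 1 replicate only and was not tested. Over all features the median was 0.01 with 55.9% above 0, and over the brightest 10% it was -0.0035. limma called 0 of 23725 features (0%) and 0 members. At an unadjusted p under 0.05 there were 2215 features (9.34%), 17.3% of the brightest 10%, and 20 members (26.3%), 18 of them higher and 2 lower. The replicate medians of the members were 0.31, 0.04, 0.07 and 0.08 (SD 0.122, n = 4), with 60 of 76, 46 of 75, 48 of 76 and 43 of 74 members above 0. All 4 lay above 0 and replicate 1 stood above the rest. Without replicate 1 the median was 0.05 with 25 members below 0.

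Of the 76 members, 17 lay above 0 in all their P1 replicates (22.4%, against 11.3% of all features), among them Rpl35a, Rpl39, Rps13, Rps28 and Rps21. Rpl3, Rps3 and Rpl4 lay below 0 in all (3.95%, against 7.16%). A dimmer second probe of Rps3 gave a P1 mean of 0.39, against -0.11 on the probe used. All P1 arrays were scanned on 1 day, and meninges markers had replicate medians of 0.42, 0.11, -0.46 and -0.20 there, in another order than the members after replicate 1. Neuron markers had replicate medians of -0.44, -0.23, -0.06 and 0.08 (7 of 9 below 0, median -0.22), and 7 of 7 tested erythroid markers lay above 0 (median 0.05), with 0 called in either list. Forebrain markers had 0.84, -0.68, 0.80 and -0.32 (7 of 9 above 0, median 0.26), and astrocyte markers -0.76, 0.24, -0.67 and 0.11 (6 of 7 below 0, median -0.17), with 0 called. The part of these cells in the values was not tested.

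Rpl35a, a large subunit protein mutated in some cases of Diamond-Blackfan anaemia, had P1 values of 0.91, 0.34, 0.35 and 0.75, with a mean of 0.59 (SE 0.11, limma adjusted p = 0.437). Rpl39, a small protein that lines the tunnel through which the new chain leaves, had 0.92, 0.34, 0.20 and 0.65, with a mean of 0.53 (SE 0.13, adjusted p = 0.437). In both genes replicates 1 and 4 were the highest and all replicates lay on one side of 0. Rps13 had 0.63, 0.57, 0.19 and 0.20, with a mean of 0.40 (SE 0.10, adjusted p = 0.437). Rps29, a zinc-binding protein of the small subunit, had 1.096, -0.04, -0.14 and 1.01, with a mean of 0.48 (SE 0.25, adjusted p = 0.611). Its replicates 1 and 4 lay far above replicates 2 and 3, which were near 0.

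Rpl4, which forms part of the wall of the exit tunnel, went the other way, with P1 values of -1.38, -0.57, -0.58 and -0.37 and a mean of -0.73 (SE 0.17, adjusted p = 0.437). At E15 the same probe gave -0.19, 0.66, 0.82, 0.35, -0.72, -0.81, 0.17 and 0.30, on both sides of 0, with a mean of 0.06 (SE 0.19, adjusted p = 0.949). Rpl3, which reaches towards the peptidyl transferase centre, had -0.59, -0.27, -0.21 and -0.17 at P1, with a mean of -0.31 (SE 0.08, adjusted p = 0.465), all below 0. Rpl21, of the large subunit, had -1.0996, 0.02, -0.03 and -0.27, with a mean of -0.35 (SE 0.20, adjusted p = 0.638), and its mean was set mainly by replicate 1. A dimmer second probe of Rpl21 gave a P1 mean of 0.06.

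**Figure D3:**
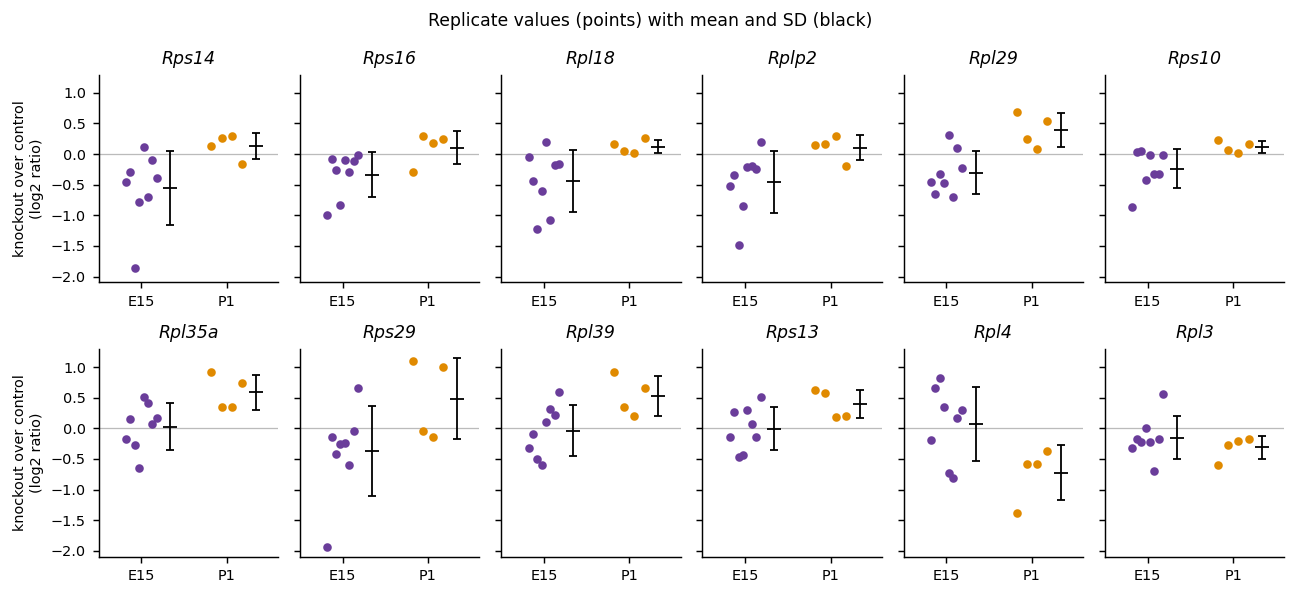
Points are replicate values of the log2 ratio of knockout over control for 12 ribosomal protein genes at E15 (n = 8) and P1 (n = 4), with the mean and SD in black and a line at 0. Rps16 lies below 0 in all E15 replicates, Rpl35a, Rpl39 and Rps13 lie above 0 in all P1 replicates, and Rpl4 and Rpl3 lie below 0 in all P1 replicates.

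The change at P1 minus the change at E15 asked whether the 2 ages differed in knockout over control, and uses the arrays of both comparisons above. Of 76 members 61 had a difference above 0, with a median of 0.26 (all features 0.01, 55.4% above 0), and limma called 0 of 22444 features (0%) and 0 members. At an unadjusted p under 0.05 there were 1009 features (4.50%) and 10 members (13.2%), 9 higher and 1 lower. The differences were 0.69 (SE 0.19) for Rpl29, 0.55 (SE 0.20) for Rpl35a, 0.63 (SE 0.24) for Rps28, 0.56 (SE 0.23) for Rpl39 and 0.36 (SE 0.15) for Rps10. Rps29 had 0.86 (SE 0.41), Rps21, which acts in late maturation of the small subunit, 0.79 (SE 0.38), and Rpl4 -0.78 (SE 0.32), and each of these 8 members had a limma adjusted p = 0.964. The lowest differences after Rpl4 were those of Rpl21, -0.30 (SE 0.26, adjusted p = 0.964), and Rpl36a, -0.19 (SE 0.27, adjusted p = 0.971). Without both E15 replicates of 1 array the median difference of the members was 0.12, and without P1 replicate 1 it was 0.16. Without the libraries high in meninges markers it was 0.22, with 16 members below 0. In the same difference 9 of 9 neuron markers lay below 0 (median -0.23), and 8 of 10 meninges markers (0.30), 6 of 7 muscle markers (0.54) and 8 of 9 forebrain markers (0.30) lay above 0, with 0 called. Their part in the values was not tested beyond that refit.

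Small and large subunit members were close at E15. Their median ratios were -0.10 (26 of 31 below 0) and -0.10 (36 of 46 below 0). In single replicates the small subunit median minus the large ran from -0.25 to 0.21, with the small subunit lower in 6 of 8. In replicate 4 the medians were -0.74 and -0.49, and in replicate 8 they were 0.36 and 0.27, so the small subunit lay farther from 0 in both. At P1 the small subunit median was 0.20 (27 of 31 above 0) and the large 0.10 (30 of 45 above 0). The small subunit was higher in 4 of 4 replicates, by 0.02 to 0.18. That P1 gap of 0.09 became 0.01 when all probes of a gene were averaged, and 0.04 without replicate 3 and 0.06 without replicate 4. It compares sets of genes that share their libraries, and no test of it was made.

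In control animals the level of many ribosomal protein genes fell from E15 to P1. Of 77 members 66 lay below 0 in P1 over E15, with a median of -0.35, against -0.09 over all features and -0.14 over the brightest 10%. limma called 29 members, 26 lower and 3 higher, among 8721 of 24978 features called (34.9% in either direction, 22.5% lower and 12.4% higher). The 26 lower members are 33.8% of the members, against 27.9% called lower among the brightest 10% of features. The 29 called in either direction are 37.7%, near the share of all features and below the 44.8% of the brightest 10%. In 21 members every P1 control lay below every E15 control (27.3%, against 17.2% of all features), and in Rpl3l and Rps25 every P1 control lay above (2.60%, against 9.60%). All P1 arrays were scanned on a later day and with another version of the scanner software than the E15 arrays, so age cannot be told apart from these.

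The 4 largest falls in control animals were of small subunit members. Rps29 had normalized signals with lowest 13154, median 19560 and highest 22063 in the 6 E15 controls and signals of 6612, 11294, 8421 and 6129.8 in the P1 controls, 2.37-fold lower (log2 -1.25, SE 0.19, limma adjusted p = 0.000836). Rps15a, of the small subunit, ran from 2995 through 3862 to 5106 at E15 and had 1441, 2056, 1757 and 1448 at P1, 2.30-fold lower (log2 -1.20, SE 0.16, adjusted p = 0.000496). Rps21 ran from 6461 through 9556 to 14553 and had 4248, 4258, 4414 and 3769 at P1, 2.24-fold lower (log2 -1.16, SE 0.18, adjusted p = 0.00110). In all 3 the P1 controls lay wholly below the E15 controls. Rps14 ran from 18415 through 23283 to 34424 and had 11218, 13337, 12579 and 11676 at P1, 2.05-fold lower (log2 -1.03, SE 0.17, adjusted p = 0.00147), with no overlap. Rps6, the substrate of the S6 kinases downstream of mTOR, was the tightest of these, from 5549.7 through 5701 to 6059 at E15 and 3437, 3914, 4163 and 3017 at P1 (log2 -0.67, SE 0.09, adjusted p = 0.000395).

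Among large subunit members Rplp2 had the lowest adjusted p. It ran from 23183 through 25731 to 32438 at E15 and had 15944, 13722, 14753 and 14543 at P1, 1.81-fold lower (log2 -0.86, SE 0.10, adjusted p = 0.000217). The other stalk proteins fell as well, Rplp0 by 0.81 on the log2 scale (SE 0.15, adjusted p = 0.00245) and Rplp1 by 0.68 (SE 0.13, adjusted p = 0.00238). Rpl35a ran from 2149 through 2608 to 3152 and had 1224, 1716, 1283 and 1162 at P1 (log2 -0.97, SE 0.14, adjusted p = 0.000573). Rpl14 ran from 191 through 263 to 310.0 and had 136, 140.0, 161 and 123 at P1 (log2 -0.89, SE 0.13, adjusted p = 0.000725). Rpl39 ran from 5305 through 7471 to 12377 and had 4713, 4706, 4269 and 4105 at P1 (log2 -0.81, SE 0.20, adjusted p = 0.00930). The P1 controls lay below all E15 controls in each of Rplp2, Rpl35a, Rpl14 and Rpl39. Other called falls included those of Rps27, by 0.72 on the log2 scale, and Rpl7, by 0.36, as well as Rps28, Rps20, Rps4x, Rpl18, Rpl37a, Rpl23 and Rpl32.

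**Figure D4:**
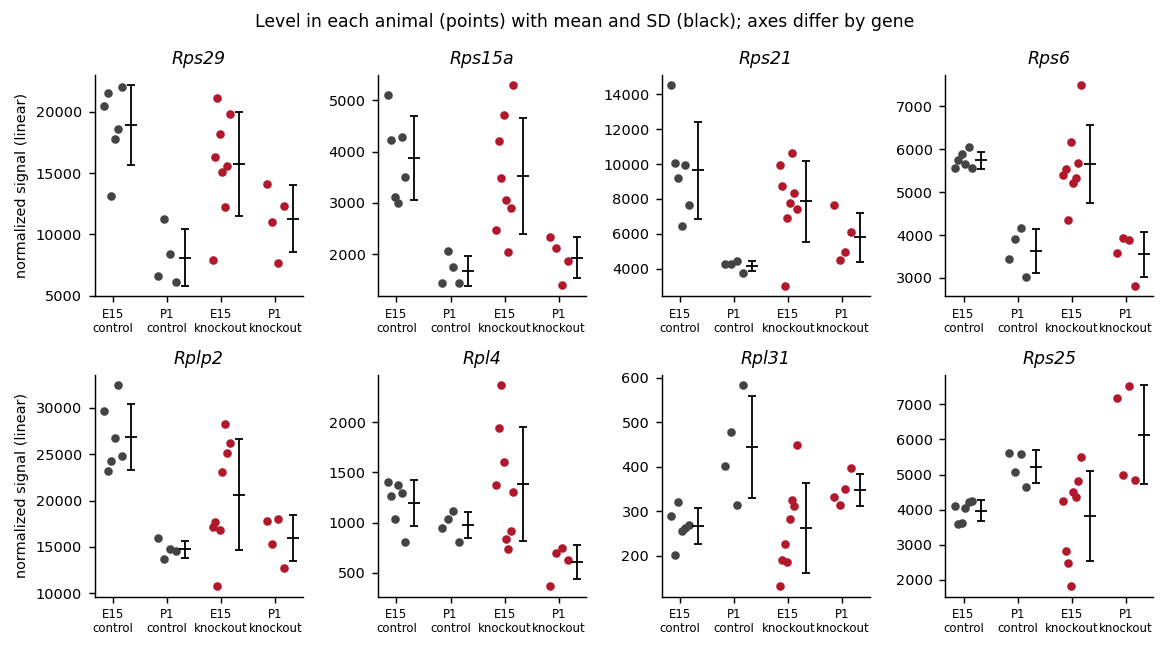
Points are the normalized signal (linear scale on the y axis, which differs by gene) of Rps29, Rps15a, Rps21, Rps6, Rplp2, Rpl4, Rpl31 and Rps25 in each animal, with control animals in grey, animals labelled knockout in red, and the mean and SD in black. The P1 controls lie wholly below the E15 controls for Rps29, Rps15a, Rps21, Rps6 and Rplp2 and wholly above them for Rps25.

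The 3 called rises rested on single probes or on dim signal. Rpl31, a protein near the mouth of the exit tunnel, had signals from 203 through 266 to 322 at E15 and 403, 479, 314 and 584 at P1 (log2 0.71, SE 0.17, adjusted p = 0.00847), with an overlap of 1 P1 control. In each of P1 controls 1 to 3 Rpl31 was read on 1 array and in 1 colour, so the dyes are not balanced there. Its second probe gave -0.42, and over the mean of its probes the change was 0.15 (adjusted p = 0.395). Rps25, which some viral RNAs need to start translation, ran from 3574 through 4085 to 4254 at E15 and had 5615, 5065, 5582 and 4630.3 at P1 (log2 0.39, SE 0.08, adjusted p = 0.00439). It had an adjusted p = 0.0721 with the scanner's processed signals, 0.02 over the mean of its probes (adjusted p = 0.816), where a dim probe gave -0.35, and -0.34 with each channel centred on its median. Rpl3l ran from 67.9 through 76.7 to 82.5 and had 82.6, 88.2, 99.2 and 99.98 (log2 0.28, SE 0.08, adjusted p = 0.0196). It was not called without control P1 animal 3 (adjusted p = 0.0661) or animal 4 (adjusted p = 0.0598).

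In 36 members more than 1 probe was well above background in at least 50% of the channels of both ages, and only such probes are counted here. In 5 of these members the probes lay on opposite sides of 0 beyond 0.3 in the control comparison of the ages. Besides Rpl31 and Rps25 these were Rps15a, whose dim second probe gave 0.42 against -1.20, Rps18, with -0.46 and 0.46, and Rpl36a, with 0.36 against -0.43 and -0.68. Neither Rps18 (adjusted p = 0.0592) nor Rpl36a (adjusted p = 0.262) was called on its brightest probe. In knockout over control no member had probes on opposite sides of 0 beyond 0.3 at either age. Without that bound, probes lay on opposite sides of 0 in 15 of the 36 members at E15 and in 10 at P1. Ribosomal protein genes have many processed pseudogenes, and whether these probes also bind their transcripts is not known from the files. Rps27l, a paralogue of Rps27 that p53 induces, fell by 0.53 on the log2 scale (SE 0.15, adjusted p = 0.0217) in controls and had knockout over control ratios of -0.01 at E15 and 0.37 at P1 (adjusted p = 0.990 and 0.496).

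The scaling between arrays set how large the fall in control animals was. With each channel centred on its own median the median of the members was -1.04, that of all features -0.14 and that of the brightest 10% -0.59. Then 57 members were called, 55 of them lower, and 76.0% of all called features were lower against 64.4% in the comparison given above. Without E15 controls 1 and 2, which were high in meninges markers, the median of the members was -0.40 and 43 were called, 40 of them lower, among 9197 features called. Small subunit members had a median of -0.45 (12 lower and 1 higher of 31) and large subunit members -0.33 (14 lower and 2 higher of 46). That gap of -0.12 ran from -0.24 without E15 control 2 to -0.02 without E15 control 6.

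Markers of several cell types also differed between the ages in controls. Of all features 22.5% were called lower and 12.4% higher. Of the dividing cell markers 10 of 11 fell (median -0.87), as did 6 of 7 erythroid markers (-1.15), 5 of 10 of meninges and fibroblasts (-1.29), 3 of 5 of choroid plexus (-0.83) and 3 of 8 of endothelium and pericytes (-0.24). Forebrain markers, with 2 of 9 called lower (median -0.59), and skeletal muscle markers, with 1 of 9 (-1.19), were at or below the share of all features. Of the neuron markers 6 of 9 rose (median 0.56), as did 4 of 7 of astrocytes (0.88), 2 of 8 of the oligodendrocyte lineage (0.25) and 3 of 7 of microglia and macrophages (0.12). Of 8 hindbrain and cord markers 1 was called higher (median -0.20), near that share. Of 10 neural progenitor markers, 3 were called in each direction. The summed signal of the dividing cell markers was 4574 to 6761 in E15 controls and 2537 to 3071 in P1 controls, with no overlap. The part of the changed make-up of the tissue in the ribosomal values was not tested.

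In the animals labelled knockout, 48 of 77 members lay below 0 in P1 over E15, with a median of -0.10 against -0.08 over all features, and limma called 3 of them, all lower, among 6259 features called (25.1%, 15% lower and 10.1% higher). Without E15 knockout animal 8, which was high in meninges and muscle markers, 39 of 77 lay below 0 with a median of -0.0039, and 5 were called, 3 of them lower, among 6961 features called (27.9%). Rps15a fell by 0.82 (adjusted p = 0.0254) and Rps6 by 0.66 (adjusted p = 0.00366), and both were called in controls too. Rpl4 fell by 1.14 (adjusted p = 0.0194) from 738 through 1342 to 2374 in the 8 E15 animals to 362, 692, 747 and 624 at P1, where 1 P1 value lay above the lowest E15 value. In controls Rpl4 had -0.28 (adjusted p = 0.187). Rps29, with 7915 through 15923 to 21177 at E15 and 14137, 11002, 7629 and 12335 at P1, overlapped and had -0.46 (adjusted p = 0.178). Rps6 was the only member whose P1 animals lay wholly below its E15 animals (1.30%, against 9.13% of all features). The difference between both genotypes in the change with age is the P1 minus E15 difference given above, in which 0 members passed, so the 29 and 3 calls do not show a difference. The channels of both genotypes share arrays, and the spread among the 8 E15 knockout animals was wider than among the 6 E15 controls for Rpl4 (SD 572 against 231) and Rps15a (SD 1128 against 813).

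**Figure D5:**
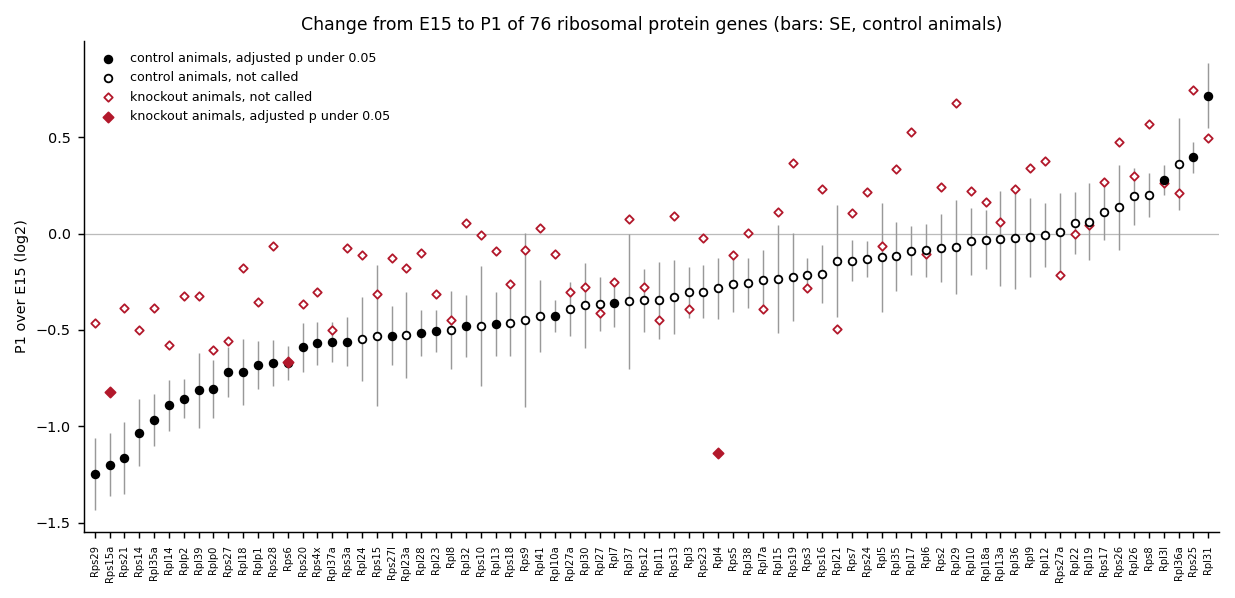
The log2 change from E15 to P1 of 76 ribosomal protein genes (x axis) is drawn for control animals as circles with SE bars and for animals labelled knockout as diamonds, with filled symbols for an adjusted p under 0.05. Control values run from -1.25 (Rps29) to 0.71 (Rpl31), with 28 filled, and 3 of the knockout values are filled (Rps15a, Rps6 and Rpl4).

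Other genes of the translation machinery had list medians from -0.07 to 0.06 in knockout over control. Ribosomal proteins outside the name rule (7 on the array, among them Fau and Lamr1, the older name of Rpsa) had 5 of 6 below 0 at E15 (median -0.07) and 4 of 7 above 0 at P1 (0.02). Their smallest p values at P1 were those of Lamr1, -0.27 (SE 0.06, adjusted p = 0.437), and Fau, 0.32 (SE 0.11, adjusted p = 0.496). Translation factors and other transcripts with a TOP had 12 of 18 below 0 at E15 (-0.03) and 12 of 18 above 0 at P1 (0.01). Eef2, which moves the ribosome along the message, had -0.40 at E15 (SE 0.17, adjusted p = 0.700), and Eef1a1, which brings in aminoacyl-tRNA, had -0.56 at P1 (SE 0.08, adjusted p = 0.437). Genes of ribosome biogenesis had 25 of 40 below 0 at E15 (-0.03) and 20 of 38 below 0 at P1 (-0.02), where Fbl, the methyltransferase of small nucleolar RNPs, had -0.48 (SE 0.07, adjusted p = 0.437). Regulators had 8 of 17 below 0 at E15 (0.00086) and 10 of 16 above 0 at P1 (0.06), with Mdm2 at 0.15 at E15 (SE 0.06, adjusted p = 0.700) and Akt1, a kinase upstream of mTOR, at -0.29 at P1 (SE 0.07, adjusted p = 0.437). In all of these lists 0 members were called at either age or in the difference between the ages.

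In controls from E15 to P1 most members of these lists lay below 0, as did 62.3% of all features, of which 22.5% were called lower. Of 39 biogenesis genes 34 lay below 0 (median -0.26), with 18 called lower and 2 higher. Rrn3, which starts RNA polymerase I, fell by 1.05 (SE 0.17, adjusted p = 0.00111), Pes1, needed for processing of large subunit RNA, by 0.99 (SE 0.16, adjusted p = 0.00116), and Nol5, the older name of Nop58, by 0.72 (SE 0.12, adjusted p = 0.00138). Of 18 translation factors with a TOP 14 lay below 0 (-0.12), with 5 lower (27.8%, near the share of all features) and 1 higher. Eif4b, a cofactor of the helicase that unwinds messages, fell by 0.89 (SE 0.11, adjusted p = 0.000227) and Naca, which shields new chains, by 1.02 (SE 0.17, adjusted p = 0.00146). Regulators had 13 of 17 below 0 (-0.36), with 8 lower, among them Gbl, the older name of the mTOR partner Mlst8, at -0.57 (SE 0.09, adjusted p = 0.00112), and Eif4ebp1, a repressor of cap-dependent translation, at -1.101 (SE 0.30, adjusted p = 0.0162). Of 7 ribosomal proteins outside the name rule 6 lay below 0 (-0.46) and 2 were called lower (28.6%, also near that share), among them Rpl7l1 at -0.78 (SE 0.10, adjusted p = 0.000346).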

How the data were processed

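The deposited files hold, per the file headers, mean spot intensity and median local background intensity for both colours, not normalized, and log10 ratios of red over green processed signal, which the deposited matrix repeats. The array's older gene names were kept. Mean intensities were corrected by normexp (offset 50) and loess within arrays in limma 3.58.1 (R 4.3.3, statmod 1.5.0, package data.table, version 1.17.8). Control spots had weight 0 in the loess, and outlier spots were set missing after it. Every log2 ratio was set as knockout over control, and ratios were averaged per knockout replicate over both dye orientations. Where 1 orientation was left, the dye effect averaged over at least 2 other replicates was taken off, which touched 41 members at E15 besides replicates 3 and 4, and 23 at P1. Features well above background in at least 50% of the channels of an age, with at least 6 E15 or 3 P1 values, were tested with lmFit and eBayes against 0, with the control-sharing sets as a random block at E15 (consensus correlation 0.0343, and 0.0577 for the difference of the ages), and adjusted by Benjamini-Hochberg over all features. Each array pairs 1 knockout with 1 control animal. For the ages, channels were separated after Aquantile over 22 arrays and averaged per animal, with both dyes weighted equally where both were present. No dye correction was made on these levels, and E15 knockout animals 3 and 4 were read in Cy5 only. Features with a called adjusted p are those under 0.05. The offset draws ratios of dim probes towards 0, which bears most on Rpl3l, the dimmest member. Named members were those called (at most 8 in each direction) or else the 6 of smallest p, the 3 highest and lowest, the 6 brightest of each age, paralogues, members with disagreeing probes, and Rps14, Rps16, Rps13 and Rpl4. Pathway lists gave their members of smallest p, and the stalk proteins Rplp0 and Rplp1, Rps6 and Lamr1 were named with values seen. The members and lists were chosen with earlier results of these data known. Some genes are counted but not reported by name here. The scripts were tested on simulated data.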

Additional observations from a re-analysis of the deposited data

Results flagged for a closer look

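Of 53 groups of 4 to 10 values examined, 3 held a value far from the others, where chance gives about 1 in 20. Rps14 in knockout over control at E15 was -1.853 in replicate 3, which has 1 array and shares control 2, against -0.78 to 0.11 in the other replicates. A dye effect of 0.40 for Rps14 had been taken off in replicates 3 and 4. Whether the flag holds without that correction was not tested. The median of the ribosomal protein genes in knockout over control at P1 was 0.3055 in replicate 1, against 0.04 to 0.08 in the other 3. In P1 control animal 4 the median deviation of the members from the mean of all 8 P1 animals of both genotypes was -0.2226, against -0.04 to -0.02 in the other 3 controls. The causes were not tested.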

How the results depend on the processing

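Named members were refitted under each alternative setting. At E15 this gave 262 values of 11 members, of which 237 kept their direction and their side of the threshold, and 25 changed sign. At P1 all 130 values of 10 members kept both, and for the difference of the ages 324 of 325 values of 13 members. In these 3 comparisons 0 members were called in any setting, so only the direction could change. Most of these members were picked for small p or extreme change in the same data, so a kept direction is no independent check. For the control comparison of the ages 272 of 299 values of 15 members kept both, 15 values lost their call, 7 gained one and 5 changed sign. The number of features called at E15 was 1 with the scanner's processed signals and 1 with the deposited log10 ratios, and 0 to 1 when a replicate was left out (1 without replicate 1). For the difference of the ages it was 3 when the dye effect was not subtracted. In controls 5697 features were called when every channel had to be well above background. Within scan day 1 the E15 median of the members was 0.23. The P1 gap of small minus large subunit was 0.012 over the mean of all probes.

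In the control comparison of the ages, centring each channel on its median gave a median of -1.04 with 57 members called, and -0.34 for Rps25 and -0.38 for Rpl36a. Knockout animals in place of controls gave -0.10, a gap of small minus large of -0.0084, 3 members called, and 0.23 for Rps16 and 0.0894 for Rps13. Leaving out each control gave medians from -0.39 to -0.26, a gap from -0.24 to -0.0189, 25 to 33 members called and 6243 to 9117 features called. Over the mean of its probes Rpl36a had -0.25, and 0.0845 in the difference of the ages.

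Rps13 at E15, with a mean of -0.0020, had 0.0143 with the scanner's processed signals, 0.0143 with the deposited ratios, 0.0204 over the mean of its probes, 0.0497 with outlier spots kept, 0.0057 with scan day as a random block, 0.52 within day 1, 0.15 without both replicates of 1 array, and -0.069 to 0.0724 when a replicate was left out, above 0 without replicate 1, 3, 4 or 7. Rpl4 at E15 had -0.0495 within day 1, -0.34 within day 2, -0.0531 to 0.196 when a replicate was left out (below 0 without replicate 2, 3 or 4), -0.18 without the libraries high in meninges markers and -0.14 without both replicates of 1 array. Within day 1, Rpl18 had 0.0655, Rplp2 0.0198 and Rpl29 0.25. Rpl13a had -0.20 within day 2 and -0.15 without the libraries high in meninges markers, and within day 3 Rpl27a had -0.0487 and Rpl11 -0.0866. The cause was not tested for any of these.

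With no replicate block, that is with the pairing on the array ignored and animals compared unpaired, the median of the members was -0.14 at E15, 0.12 at P1 and 0.32 for the difference of the ages, with 0 features called in each, so the pairing changed no call. P1 arrays were scanned on 1 day, so no fit within scan days was made there. The alternatives without the libraries high in meninges markers (for the knockout animals, without E15 animal 8) and without both replicates of 1 array were chosen after seeing the data. Signal over background was lowest for Rpl3l.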

Other observations

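Mitochondrial ribosomal proteins, which build the separate ribosome of mitochondria, lay on the same sides of 0 as the cytosolic ones on these shared arrays. Of 74, 59 lay below 0 at E15 (median -0.07), 47 of 73 above 0 at P1 (0.04) and 54 of 73 above 0 in the difference of the ages (0.11), with 0 called in each. Mrps12 had -0.42 at E15 (SE 0.07, limma adjusted p = 0.700) and Mrpl54 had -0.26 at E15 and 0.21 at P1 (adjusted p = 0.700 and 0.437). In controls from E15 to P1, 58 of 74 lay below 0 (median -0.29), with 22 called lower (29.7%) and 1 higher, against 62.3% of all features below 0 and 22.5% called lower. The called ones included Mrpl36 at -0.74 (SE 0.10, adjusted p = 0.000352), Mrps7 at -2.05 (SE 0.28, adjusted p = 0.000498) and Mrps17 at -0.56 (SE 0.08, adjusted p = 0.000604).

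Members went together across replicates. As a description, with replicates that share arrays and, at E15, control animals, the median correlation of a member with the median of the members was 0.65 over the 8 E15 replicates (66 of 70 with complete values above 0, against 53.0% of other features). Over the 4 P1 replicates it was 0.47 (55 of 73 above 0, against 49.1%). Among 21998 other features with complete values, those whose ratios over all 12 replicates were most like the median of 67 members were TC1344716 (r = 0.97), Omd (r = 0.96), 1110006I15Rik, 0610039J04Rik, Myo1c, a motor protein, Elk3 and Atf5, which are transcription factors, Stfa1, AK081751 and Ostn (r = 0.94). Omd, osteomodulin, known from bone matrix, had -1.05 in E15 replicate 4 and 0.47 in replicate 8.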
